A study of Mus musculus with 8 samples.

Results

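Livers of mice lacking hepatic Xbp1 were compared with livers of flox controls after 4 weeks on a high-fat diet that came with a high-fructose corn syrup equivalent, gene by gene. The comparison rests on 4 of the 8 libraries of the series and on 10224 genes of the 22923 symbols in the files. A gene entered when it had at least 1 RPKM (reads scaled to transcript length and to library size) in flox or in knockout and was listed at exactly 0 in neither. Both groups were C57BL/6 mice. The flox group carried the Xbp1flox genotype and the knockout group the Xbp1-/- genotype, which the series text places in the liver. What drove the deletion, and how old the mice were, the sources used here do not say. Livers of 4 mice per group had been pooled into 2 libraries, and the deposited files hold 1 RPKM value per gene and group. There is therefore no replicate check on any difference below, and no test, SD or SE is given. The same 2 genotypes on regular chow, which share no group with the high-fat pair, are used for values side by side.

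XBP1 is a transcription factor that acts in the unfolded protein response. IRE1, a kinase and endonuclease in the membrane of the endoplasmic reticulum (ER), splices the Xbp1 messenger RNA under ER stress, and the spliced form encodes the active factor, which drives genes for protein folding, translocation, glycosylation, degradation and secretion. In liver XBP1 is also known for its part in lipid synthesis, and loss of XBP1 is known to leave IRE1 overactive, so that IRE1 cleaves other messenger RNAs at the ER, a process called regulated IRE1-dependent decay. PERK and ATF6, the other sensors, run separate branches of the response, and PERK acts through ATF4 and CHOP.

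The change of a gene was log2((knockout + 1)/(flox + 1)) in RPKM. The words rose and fell are kept for genes whose change was at least 1 or at most -1, and for other genes only values are given. By that rule 111 genes rose, 1.09% of those compared, and 192 fell, 1.88%, so 303 genes or 2.96% passed in either direction. Of the compared genes, 9643 had at least 1 RPKM in both groups, 401 passed only through the knockout value and 180 only through the flox value. Among genes with at least 1 RPKM in both groups, 70 rose and 177 fell. Changes of 4-fold or more on this scale were seen for 20 genes that rose and 17 that fell. The median change over all genes was -0.13, and after subtracting it 147 genes (1.44%) passed upward and 129 (1.26%) downward. The share of passing genes that were higher thus went from 36.6% to 53.3%. Genes named below with a change between -1 and -1.13 did not pass after this centring, Chac1, Sec61g, Rpn1, Edem1, Cps1 and Asl among them.

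The size of the change followed the level of the gene. The 1928 genes with a mean under 2 RPKM had a median change of 0.02, with 33 higher and 8 lower. Among the 308 genes with a mean of 200 RPKM or more the median was -0.39, with 4 higher and 34 lower. The bands between lay in order, at -0.11 for 2 to 10 RPKM, -0.25 for 10 to 50 and -0.36 for 50 to 200. Deposited values summed to 461725 RPKM in flox livers and 367414 in knockout, and the 50 most abundant genes held 38.3% and 37.3% of those sums. When each gene was read against the median of its own band, 145 genes were higher and 101 lower, and 110 of the 111 risers and 100 of the 192 fallers passed again. Among genes of 200 RPKM or more, changes down to -1.37 no longer passed there, which covers P4hb, Hp, Apoa1, F2 and Cyp1a2. For many of the gene lists below, the median is therefore given beside its median against genes of like level. A list median given alone was not adjusted for level. Some of these change sign against genes of like level, as for cytosolic heat shock chaperones (from -0.17 to 0.13) and hepatokines (from -0.08 to 0.14). Others shrink, as for the proteasome (from -0.35 to -0.09). After scaling to the same RPKM sum without the 50 most abundant genes, the median of all genes was 0.12, and 91 genes were lower. A lower value in whole liver can mean fewer cells of a type, less RNA per cell or a difference in scaling. These cannot be told apart in bulk tissue with 1 value per group.

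**Figure D1:**
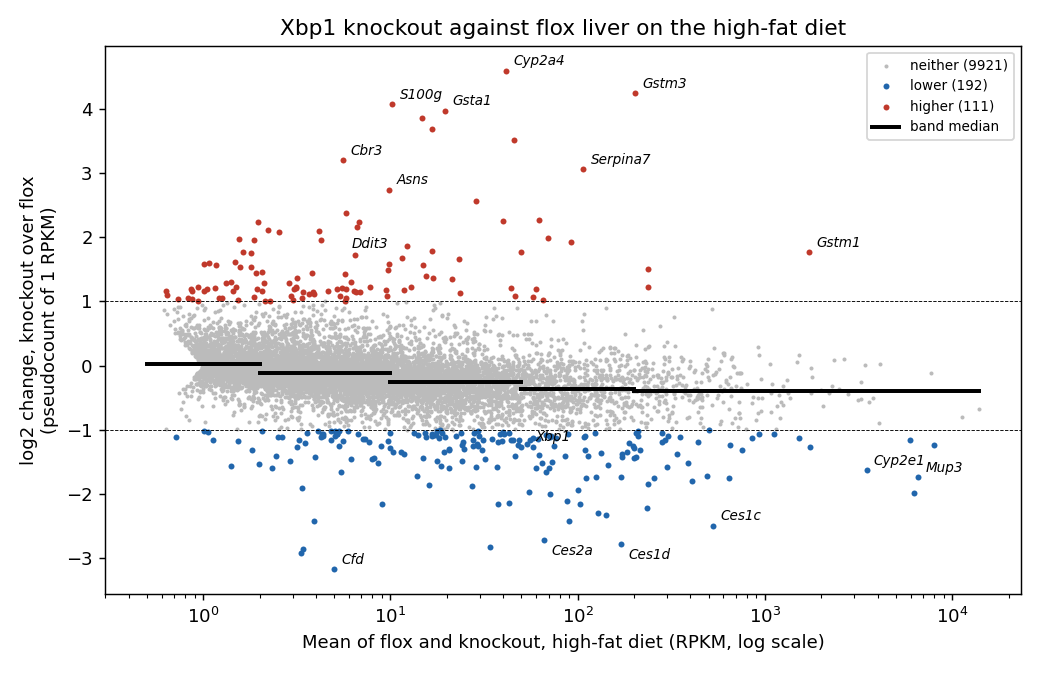
Each point is 1 of the 10224 genes compared. The horizontal axis is the mean of the flox and knockout values on the high-fat diet in RPKM (log scale), and the vertical axis is the log2 change of knockout over flox with a pseudocount of 1 RPKM. Dashed lines mark changes of 1 and -1, red points are the 111 genes that rose, blue points the 192 that fell, and black bars the median of each level band, which goes from 0.02 in the lowest band to -0.39 in the highest.

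Xbp1 itself (chr11:5520641-5525993, GRCm38) stood at 90.7 RPKM in flox livers and 34.1 RPKM in knockout, a change of -1.39. On chow it stood at 112 and 44.2 RPKM (-1.32). The files give 1 value for the whole gene, so a deleted exon cannot be read apart from the rest of the transcript. The genes of the stress sensors did not pass in either direction. Ern1, which encodes IRE1, stood at 5.39 and 6.10 RPKM (0.15), Atf6 at 10.1 and 8.26 RPKM (-0.27), and Eif2ak3, which encodes PERK, at 3.35 and 2.22 RPKM (-0.43). In the list of Xbp1 and ER stress sensors, Xbp1 was the only one of 18 compared members past the threshold, and the list median was -0.32.

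Genes for folding, import and quality control in the ER were mostly below the median of all genes, with few past the threshold. Among 23 ER chaperones and peptidyl-prolyl isomerases 2 fell and none rose, 20 lay below the median of all genes, and the list median was -0.62, or -0.28 against genes of like level. Dnajb9, a co-chaperone of BiP, fell from 35.4 RPKM in flox to 13.9 RPKM in knockout (-1.29). Cnpy3, a chaperone for Toll-like receptors, fell from 13.8 to 5.58 RPKM (-1.17). Hspa5, which encodes BiP, the main ER chaperone, stood at 181 and 136 RPKM (-0.41), Hsp90b1 at 204 and 176 RPKM (-0.21) and Calr, the gene of calreticulin, at 390.0 and 275 RPKM (-0.50). The 2 genes that fell were thus a co-chaperone and a client-specific chaperone, while the most abundant members of the list did not pass. Against genes of like level Hspa5 was at -0.05, close to its band's median. On chow Hspa5 fell from 204 to 99.8 RPKM (-1.02), so its 2 diets lay on different sides of the threshold, a difference that was not tested.

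Hspa5 carries a textbook ER stress response element, a CCAAT box spaced from CCACG, which ATF6 and XBP1 are known to use. The stretch upstream of its start (chr2:34771940-34772089, plus strand, GRCm38.p6, from RefSeq) is shown because this element was sought in every promoter below, with the match in capitals.
Hspa5: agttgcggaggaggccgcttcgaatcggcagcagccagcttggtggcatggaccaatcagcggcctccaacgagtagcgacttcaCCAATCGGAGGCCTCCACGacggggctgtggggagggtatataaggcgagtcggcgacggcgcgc
The letters CCAAT, 9 bases of any kind and CCACG, on either strand, were found within 250 bases upstream of 15 of the 7379 compared genes that have a promoter in the RefSeq table, 0.203%. They were found upstream of 6 of the 18 ER chaperone genes with a promoter in the table (Hspa5, Hsp90b1, Calr, Canx, Dnajc3 and Creld2), and none of these 6 passed the threshold. None of the 78 risers or 130 fallers with a promoter in the table held these letters in that window, which is a statement about letters only.

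Disulfide bond formation showed a similar picture, with 2 of 21 members lower and a list median of -0.40 (-0.11 against genes of like level). P4hb, protein disulfide isomerase, fell from 491 to 189 RPKM (-1.37), and Erp44, which retains client proteins in the early secretory pathway, fell from 34.3 to 14.0 RPKM (-1.24). Pdia3 and Pdia4, of the same family as P4hb, stood at 159 and 119 RPKM (-0.41) and at 65.7 and 59.6 RPKM (-0.14). These 3 isomerases of 1 family therefore ranged from -0.14 to -1.37.

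Of 25 genes for signal recognition, the translocon and signal peptidase, 24 lay below the median of all genes and 1 fell. That gene was Sec61g, the small gamma subunit of the translocon, at 79.4 RPKM in flox livers and 35.8 RPKM in knockout (-1.13). Sec61b, the beta subunit, stood at 111 and 56.6 RPKM (-0.96). The median of this list was -0.55 and -0.39 against genes of like level, the largest offset from like-level genes among the 8 lists of ER function drawn without regard to IRE1 decay. In N-glycan assembly 1 of 38 genes fell, Rpn1 of the oligosaccharyltransferase, from 23.1 to 10.2 RPKM (-1.10), and the median was -0.31. In ER-associated degradation 1 of 29 fell, Edem1, a lectin that hands misfolded glycoproteins to degradation, from 25.8 to 12.1 RPKM (-1.04), and the median was -0.41. Derl3, a channel component of this route, stood apart at 4.82 and 9.95 RPKM (0.91), with a change of -1.10 on chow. None of 37 COPII coat and cargo receptor genes and none of 31 COPI and Golgi genes passed, with medians of -0.45 and -0.37 (-0.19 and -0.17 against genes of like level). The most abundant COPII member, Sar1b, stood at 154 and 104 RPKM (-0.55), and the most abundant COPI member, Arf1, at 119 and 87.4 RPKM (-0.44).

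Many known targets of IRE1 decay in liver fell. The list has 19 compared members and was drawn from liver studies of this same deletion, so its direction is not independent evidence. Of these, 11 fell, out of 192 fallers in all, 1 rose, and the median was -1.37, or -1.12 against genes of like level. The lowest change was that of Ces1e (-2.82), so this list overlaps the carboxylesterase 1 cluster described next. Bloc1s1, a subunit of a lysosome trafficking complex and the most used marker of IRE1 decay, fell from 87.8 to 21.8 RPKM (-1.96). Hgsnat, a lysosomal acetyltransferase, fell from 17.4 to 6.14 RPKM (-1.37). Both liver P450 members with lower values were abundant. Cyp2e1, which oxidises ethanol and paracetamol, fell from 5287 to 1707 RPKM (-1.63), and Cyp1a2 fell from 278 to 133 RPKM (-1.05). The other members did not all go this way. Scara3 rose from 0.494 to 2.51 RPKM (1.23), Sparc stood at 24.1 and 34.2 RPKM (0.49), Col6a1 at 1.92 and 3.59 RPKM (0.65) and Pdgfrb at 1.22 and 1.95 RPKM (0.41). Sparc, Col6a1 and Pdgfrb are genes of matrix and stromal cells.

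The carboxylesterase 1 cluster lost transcripts along its whole compared length. Carboxylesterases hydrolyse ester drugs and stored lipid esters. All 6 compared genes of the cluster, Ces1b to Ces1g, lie side by side at chr8:93056725-93337209 (GRCm38), and all 6 fell, with a median of -2.39. Ces1c stood at 900.1 RPKM in flox livers and 159 RPKM in knockout (-2.49), and Ces1d, which is known to mobilise triglyceride for secretion, stood at 299 and 42.6 RPKM (-2.78). Ces1e went from 60.0 to 7.63 RPKM (-2.82), Ces1f from 215 to 43.2 RPKM (-2.29), Ces1g from 70.3 to 15.3 RPKM (-2.13) and Ces1b from 13.2 to 3.93 RPKM (-1.52). The 7 Ces1 symbols in the files summed to 1557 RPKM in flox livers and 272 RPKM in knockout, so the loss does not rest on how reads were shared among near-identical copies. Genes of the other carboxylesterase clusters were split. Ces2a fell from 116 to 16.8 RPKM (-2.72), Ces3b from 170.2 RPKM by 1.75 on the log2 scale and Ces4a from 1.77 to 0.352 RPKM (-1.03). In contrast Ces3a, the most abundant of them, stood at 1183 and 726 RPKM (-0.70) and Ces2e at 92.7 and 97.2 RPKM (0.07). Over the symbol stem, 9 of 14 Ces genes fell, 64.3%, the highest share of called members among families with at least 6 compared genes. The Ces1 genes were also the only run of 3 or more called genes that were neighbours among the compared genes with coordinates.

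The largest changes among genes with at least 5 RPKM in either group were those of genes with varied known roles. Cyp2a4, a steroid hydroxylase, stood at 2.38 RPKM in flox livers and 80.3 RPKM in knockout (4.59), the largest rise. Summed with its near-identical copy Cyp2a5, the change was 0.40, as given below. S100g, a small calcium-binding protein of absorbing epithelia, stood at 0.263 and 20.2 RPKM (4.07). Ly6d, a surface protein of lymphoid and epithelial progenitors, went from 1.55 to 31.8 RPKM (3.69), Tff3, a secreted trefoil peptide of mucous epithelia, from 6.51 to 85.0 RPKM (3.52), and Serpina7, which carries thyroid hormone in plasma, from 22.1 to 192 RPKM (3.06). Igfbp1, a binding protein for insulin-like growth factors that insulin represses, went from 7.52 to 49.7 RPKM (2.57). These 6 genes belong to different functional groups, and the other large rises are described below with their gene lists. On the other side, Cfd, the gene of complement factor D (adipsin), stood at 9.76 RPKM in flox livers and 0.193 RPKM in knockout (-3.17). Retsat, a retinol saturase, fell from 152 to 27.5 RPKM (-2.42), Pxmp2, a channel of the peroxisome membrane, from 114 to 28.1 RPKM (-1.99) and Adam11 from 7.28 to 0.552 RPKM (-2.42). The symbols LOC622167 and 2210411K11Rik also belonged to the 20 largest falls, at 6.72 and 0.0705 RPKM (-2.85) and at 15.3 and 2.66 RPKM (-2.16). Cfd is an adipose gene, and its flox value on chow was 0.533 RPKM. The 29 adipose, muscle, pancreas and gut markers with a row summed to 2275 and 1089 RPKM, and 23 of them stood under 1 RPKM in both high-fat groups, 12 at 0 in both. Car3, a carbonic anhydrase abundant in fat and muscle and present in male liver, held 91.9% of the flox sum and fell from 2092 to 956 RPKM (-1.13). The part of other tissue in the Cfd value was not tested.

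**Figure D2:**
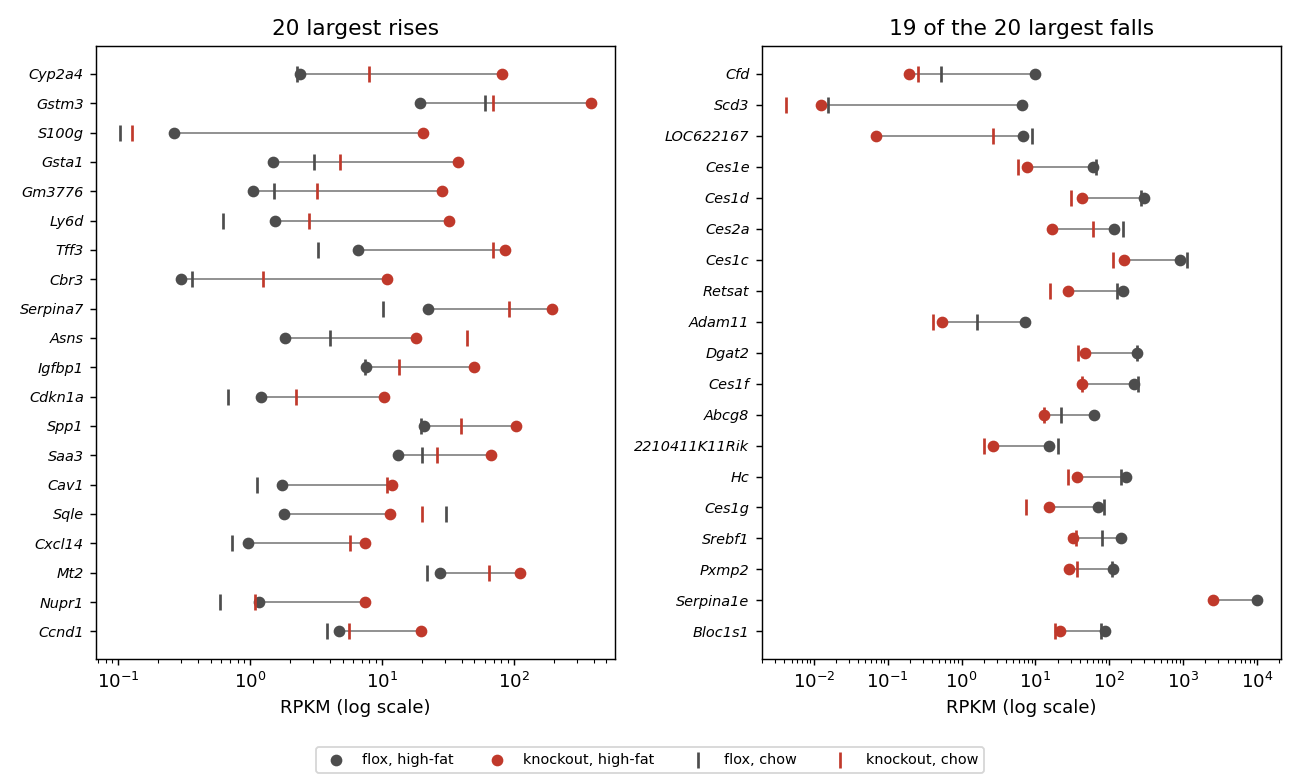
Left, the 20 genes with the largest rise and right, 19 of the 20 with the largest fall among genes with at least 5 RPKM in either group on the high-fat diet. The horizontal axes are RPKM on a log scale, grey and red dots are flox and knockout on the high-fat diet, and grey and red ticks the same genotypes on chow (values listed at 0 are not drawn). Cyp2a4, at 2.38 and 80.3 RPKM, heads the rises and Cfd, at 9.76 and 0.193 RPKM, the falls, and Tff3 and Serpina7 show similar gaps on both diets.

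Genes of the integrated stress response were raised at several points of the pathway. Of 24 compared members 6 rose, 1 fell, 20 lay above the median of all genes, and the list median was 0.25, or 0.40 against genes of like level. Of the 24, 22 had at least 1 RPKM in both groups, and Atf3 entered through the knockout value alone. Atf4, the factor translated when eIF2 is phosphorylated, stood at 32.0 RPKM in both groups (0.00), and Atf5 at 112 RPKM in both (0.01). Ddit3, which encodes CHOP, rose from 4.99 to 18.0 RPKM (1.67). Trib3, a pseudokinase induced by CHOP, rose from 2.78 to 7.62 RPKM (1.19), and Atf3 rose from 0.507 to 2.38 RPKM (1.17). Messenger RNA of downstream regulators was therefore higher while that of Atf4 and Atf5 was level. Nupr1, a stress-induced chromatin protein, rose from 1.16 to 7.34 RPKM (1.95), Slc3a2, the heavy chain of amino acid exchangers, from 11.6 to 31.1 RPKM (1.35), and Fgf21, a hormone of the fasted and stressed liver, from 1.24 to 4.47 RPKM (1.28). Chac1, which degrades glutathione and is a known ATF4 target, went the other way, from 3.80 to 1.22 RPKM (-1.11). On chow Ddit3 stood at 4.23 and 5.78 RPKM (0.37) and Trib3 at 3.67 and 3.86 RPKM (0.06), so neither passed there.

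Amino acid synthesis genes under ATF4 did not move as 1 block. Asns, asparagine synthetase, rose from 1.82 to 17.9 RPKM (2.74), and on chow it stood at 4.02 and 44.0 RPKM (3.17). Psat1, of serine synthesis, rose from 0.39 to 2.44 RPKM (1.31). These were the 2 risers among 19 compared genes of asparagine, serine, proline and one-carbon synthesis, whose median was -0.31 (0.06 against genes of like level). Of the 19, 17 had at least 1 RPKM in both groups, and Psat1 entered through the knockout value alone. Bhmt, the most abundant member and an enzyme of methionine recycling, stood at 1345 and 816 RPKM (-0.72). None of 23 cytosolic aminoacyl-tRNA synthetases passed, and their median was -0.12, next to the median of all genes. None of 33 cytosolic heat shock chaperones passed either, with a median of -0.17. Hspa8, the most abundant of them, stood at 541 and 461 RPKM (-0.23).

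The C/EBP-ATF response element, TGATGNAA on either strand, through which ATF4 is known to act, was found within 250 bases upstream of 6 of 78 risers with a promoter in the table (7.69%: Asns, Atf3, Fgf21, Idi1, Nupr1 and Pdzk1ip1). It was found in 2 of 130 fallers (1.54%: Chac1 and Insig2) and in 183 of all 7379 promoters (2.48%). The stretches upstream of Asns (chr6:7693210-7693359, minus strand) and Nupr1 (chr7:126625471-126625620, minus strand), from RefSeq on GRCm38.p6, are shown because both genes are among the 20 largest rises, with the match in capitals.
Asns: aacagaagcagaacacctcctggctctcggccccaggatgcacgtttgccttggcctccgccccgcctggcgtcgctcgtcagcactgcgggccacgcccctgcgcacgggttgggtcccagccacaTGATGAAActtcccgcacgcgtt
Nupr1: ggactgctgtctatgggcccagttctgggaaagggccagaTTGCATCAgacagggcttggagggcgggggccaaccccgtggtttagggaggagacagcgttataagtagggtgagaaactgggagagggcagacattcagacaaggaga
In Asns the match reads in the direction of the gene, and in Nupr1 it reads on the opposite strand. A match is a description of the letters and does not show that a factor was bound.

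Glutathione S-transferases, which join glutathione to reactive compounds, held some of the largest rises. Of 21 compared genes 6 rose and none fell, and the other 15 were spread so that the list median was -0.09 (0.27 against genes of like level). Gstm3 stood at 19.4 RPKM in flox livers and 384 RPKM in knockout (4.24), and Gstm1, already abundant, at 778 and 2660 RPKM (1.77). Gsta1 went from 1.48 to 37.8 RPKM (3.97), Gsta2 from 10.7 to 36.0 RPKM (1.66), Mgst3 from 14.5 to 32.8 RPKM (1.13) and Gstm4 from 29.2 to 62.8 RPKM (1.08). Gm3776, next to Gsta1 on chromosome 9, went from 1.05 to 28.6 RPKM (3.85). Gsta1, Gsta2 and Gm3776 are near-identical copies, so each single value is uncertain, but their sum stood at 13.2 and 102 RPKM (2.86). The 7 Gstm genes summed to 967 RPKM in flox livers and 3265 RPKM in knockout (1.75). Several members of other classes were on the other side of zero. Mgst1, the most abundant member, stood at 3827 and 2670 RPKM (-0.52), Gstp1 at 2492 and 1611 RPKM (-0.63) and Gstz1 at 434 and 238 RPKM (-0.87). The rises were therefore those of some alpha, mu and microsomal members and not of the family. On chow none of the 6 passed, and Gstm3 stood at 60.0 and 68.9 RPKM (0.20).

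Other genes known as targets of NRF2, the factor of the antioxidant response, were shifted upward. Of 32 compared genes 3 rose, none fell, 23 lay above the median of all genes, and the list median was 0.18, or 0.48 against genes of like level. Cbr3 and Cbr1, neighbouring carbonyl reductases on chromosome 16, stood at 0.299 and 10.9 RPKM (3.20) and at 36.0 and 83.9 RPKM (1.20). Nqo1, a quinone reductase, rose from 3.12 to 9.13 RPKM (1.30). The most abundant members, the ferritin genes, hardly differed, with Ftl1 at 3394 and 3424 RPKM (0.01). In glutathione synthesis and reduction 1 of 17 genes rose, the peroxidase gene Gpx2, from 0.029 to 3.87 RPKM (2.24), and Chac1 was the 1 that fell. The abundant peroxidase gene Gpx1 stood at 1519 and 1126 RPKM (-0.43). None of 15 superoxide, peroxide and peroxiredoxin genes passed, and Cat, catalase, stood at 1391 and 1121 RPKM (-0.31). The antioxidant response element core, TGACNNNGC on either strand, was found in 7.69% of promoters of risers, 11.5% of fallers and 14.5% of all. Among glutathione S-transferases it was found for Gsta3, Gstm5, Gstm7 and Mgst1, 4 of 19 with a promoter in the table, and none of these rose.

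Metallothioneins bind zinc and copper. Mt2 rose from 27.3 to 111 RPKM (1.99) and its neighbour Mt1 from 123 to 351 RPKM (1.51), and on chow they stood at 21.7 and 64.4 RPKM (1.52) and at 101 and 163 RPKM (0.69). They were the only risers among 16 compared genes of metallothioneins, zinc and selenium, whose median was -0.31. Selenbp2, a selenium-binding protein, fell from 193 to 57.1 RPKM (-1.74). Selenbp1, nearly identical in sequence, stood at 162 and 116 RPKM (-0.47), and their sum at 355 and 174 RPKM (-1.03). Metal response elements are short and common: TGCACNC or TGCGCNC was found in 32.1% of promoters of risers and 34.4% of all promoters. The stretch upstream of Mt2 (chr8:94172468-94172617, plus strand, GRCm38.p6, from RefSeq) is shown because Mt2 had the largest rise of the list, with the matches on either strand in capitals.
Mt2: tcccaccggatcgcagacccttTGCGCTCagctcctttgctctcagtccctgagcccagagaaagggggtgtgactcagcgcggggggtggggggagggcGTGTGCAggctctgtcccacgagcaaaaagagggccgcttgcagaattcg

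Genes of cell cycle arrest and of cell cycle entry rose side by side. Cdkn1a, which encodes the inhibitor p21, rose from 1.20 to 10.4 RPKM (2.37), and Phlda3, an inhibitor of AKT, from 0.43 to 3.16 RPKM (1.54). They were the 2 risers among 22 compared p53 targets, and the list median was 0.33, with 18 of the 22 at 1 RPKM or more in both groups and Phlda3 entering through knockout alone. Trp53 itself stood at 8.86 and 12.8 RPKM (0.49) and Mdm2 at 5.44 and 6.30 RPKM (0.18). Ccnd1, cyclin D1, rose from 4.67 to 19.7 RPKM (1.87), and Mcm6, of the replication helicase, from 1.52 to 4.34 RPKM (1.08). These were the risers among 23 compared cell cycle genes, all above the median of all genes. Only 18 of the 23 had 1 RPKM in both groups and 12 further genes were under the filter, so a gene could enter through a higher knockout value alone. In the list of apoptosis regulators Tnfrsf12a, a receptor of the TNF family, rose from 3.13 to 8.49 RPKM (1.20), Bik, a BH3-only protein, fell from 6.21 to 2.47 RPKM (-1.06), and the median over 25 genes was -0.13.

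Few genes of fatty acid and triglyceride synthesis fell. Of 21 compared genes of fatty acid synthesis and its regulators 2 fell and none rose, and the median was -0.32 (0.01 against genes of like level). Srebf1, which encodes the SREBP-1 factors of lipogenesis, fell from 143 to 32.4 RPKM (-2.11), and Thrsp, a lipogenic nuclear protein, from 394 to 173 RPKM (-1.18). No compared enzyme gene of this list passed, the known SREBP-1 targets Fasn, Acly and Me1 among them. Fasn, fatty acid synthase, stood at 41.4 and 25.2 RPKM (-0.70), Acly at 37.1 and 34.4 RPKM (-0.11) and Me1 at 64.6 and 80.1 RPKM (0.31). Lower Srebf1 thus stood beside enzyme genes on both sides of zero. Among 19 triglyceride synthesis genes 2 fell. Dgat2, which adds the last acyl chain, fell from 238 to 46.8 RPKM (-2.32), and Agpat2, which makes phosphatidic acid, from 108 to 37.6 RPKM (-1.50). Acsl1, the most abundant member, stood at 306 and 165 RPKM (-0.89). On chow Dgat2 stood at 239 and 37.3 RPKM (-2.65) and Agpat2 at 84.4 and 49.3 RPKM (-0.76).

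Desaturases cannot be fully read from these files. Scd1, the main desaturase of liver, was listed at 0 in flox and at 894 RPKM in knockout, against 929 and 264 RPKM on chow, and genes that hepatocytes are known to use, such as Alb, were also listed at 0, so no fold is given. Scd3, a close copy, fell from 6.62 to 0.0125 RPKM (-2.91), in the pair of groups in which the Scd1 value is in doubt. Of the 15 compared desaturase and elongase genes other than Scd3 none passed, and Fads2 stood at 343 and 251 RPKM (-0.44). In the lists of storage and transport, G0s2, an inhibitor of adipose triglyceride lipase, fell from 149 to 69.7 RPKM (-1.09), 1 of 17 droplet and lipase genes, of which 16 lay below the median of all genes. Mfsd2a, a transporter of lysophospholipids, fell from 32.5 to 15.2 RPKM (-1.05), 1 of 20 phospholipid genes. Of 16 genes of fatty acid uptake and binding 3 fell: Fabp2 from 159 to 40.9 RPKM (-1.93), Slc27a5 from 291 to 107 RPKM (-1.43) and Fabp1 from 8196 to 3703 RPKM (-1.15). Cd36, a fatty acid transporter of the plasma membrane, stood at 23.0 RPKM in both groups (0.00).

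Fatty acid oxidation genes were below the median of all genes as a list, less so against genes of like level. Of 39 compared genes 1 fell and none rose, 33 lay below the median of all genes, and the median was -0.49, or -0.12 against genes of like level. The gene that fell was Acaa1b, a peroxisomal thiolase, from 913 to 387 RPKM (-1.24). The Cyp4a omega-hydroxylases, known PPAR-alpha targets, went both ways. Cyp4a14 rose from 36.8 to 78.5 RPKM (1.07) and Cyp4a31 from 3.88 to 9.85 RPKM (1.15), while Cyp4a12b fell from 75.2 to 31.6 RPKM (-1.22). Cyp4a10 stood at 156 and 90.8 RPKM (-0.77). Cyp4a12b and its near-identical copy Cyp4a12a summed to 218 and 205 RPKM (-0.09), so the lower value of Cyp4a12b was not seen in the sum of the copies. On chow Cyp4a14 stood at 55.6 and 31.5 RPKM (-0.80), on the other side of zero.

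The sterol synthesis genes that rose in knockout on the high-fat diet were lower in knockout than in flox on chow. In the branch from squalene 3 of 12 genes rose and none fell, with a median of 0.41 (0.66 against genes of like level), and in the mevalonate pathway 1 of 11 rose, with a median of 0.30. Sqle, squalene epoxidase, stood at 1.79 RPKM in flox livers and 11.4 RPKM in knockout (2.16), and on chow at 30.7 and 19.9 RPKM (-0.60). Idi1, isopentenyl diphosphate isomerase, stood at 6.89 and 26.3 RPKM (1.79), and on chow at 113 and 78.1 RPKM (-0.53). Nsdhl rose from 7.37 to 18.5 RPKM (1.22) and Cyp51 from 5.42 to 13.5 RPKM (1.18), and both act on lanosterol and its products. On chow they stood at 62.3 and 39.9 RPKM (-0.63) and at 45.2 and 23.9 RPKM (-0.89). These 4 genes were lower in both genotypes on the high-fat diet than on chow, and the flox value had dropped further than the knockout value. Hmgcs1, of the mevalonate pathway, stood at 26.2 and 44.2 RPKM (0.73). Insig2, which holds SREBP in the ER, fell from 52.8 to 22.6 RPKM (-1.19), 1 of 20 genes of sterol sensing and uptake.

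Abcg5 and Abcg8, the 2 subunits of the transporter that exports sterols into bile, both fell, and they were the only 2 of 11 genes of sterol efflux and LXR targets to pass. Abcg5 stood at 96.7 RPKM in flox livers and 33.0 RPKM in knockout (-1.52), and Abcg8 at 61.6 RPKM in flox livers and at 0.211 of that level in knockout (-2.16). On chow Abcg5 stood at 32.0 and 30.4 RPKM (-0.07), and Abcg8 at 22.4 RPKM in flox livers with a change of -0.75. The flox group on the high-fat diet stood alone with high Abcg5 and Abcg8 values. RefSeq gives Abcg8 2 starts, the first of them inside Abcg5. The second lies head to head with the start of Abcg5, and the stretch between these starts (chr17:84683012-84683120, minus strand, GRCm38.p6, from RefSeq) is shown because both genes moved together, with no letters marked.
Abcg5-Abcg8: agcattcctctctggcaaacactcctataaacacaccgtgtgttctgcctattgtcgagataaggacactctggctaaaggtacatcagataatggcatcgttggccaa
Abca1, another LXR target, stood at 21.0 and 13.2 RPKM (-0.63) and Nr1h3, which encodes LXR-alpha, at 39.4 and 28.5 RPKM (-0.45). Bile acid genes had 1 rise and 1 fall among 14 compared. Cyp39a1, an oxysterol hydroxylase, rose from 3.72 to 9.42 RPKM (1.14), and Slc27a5, which also activates bile acids for conjugation, fell as given above. Cyp7a1, the rate-limiting enzyme of bile acid synthesis, stood at 26.0 and 33.2 RPKM (0.34). Among 18 genes of bile acid transport and its nuclear receptors, Slco1a4 fell from 6.24 to 1.71 RPKM (-1.42) and Slco2b1 from 40.6 to 18.5 RPKM (-1.09), both organic anion importers.

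Genes of lipoprotein particles and of their clearance were among the fallers. Of 23 apolipoprotein and assembly genes 3 fell, with a median of -0.51 (-0.12 against genes of like level). Apoa1, the main protein of HDL, stood at 11270 and 4793 RPKM (-1.23), Apon at 217 and 74.2 RPKM (-1.54) and Saa4, an HDL-borne serum amyloid, at 103 and 32.2 RPKM (-1.65). Apob stood at 362 and 207 RPKM (-0.80) and Apoa2, the most abundant compared member, at 17124 and 10668 RPKM (-0.68). Apoe was listed at 0 in both high-fat groups and at 13172 and 11145 RPKM on chow, so it was not compared. Of 20 genes for lipoprotein receptors, lipases and their regulators 4 fell. Lrp1, a remnant receptor, fell from 44.7 to 17.3 RPKM (-1.32), Lipc, hepatic lipase, from 67.9 to 28.3 RPKM (-1.23) and Pcsk6, a proprotein convertase, from 27.2 to 12.1 RPKM (-1.11).

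Drug-metabolising P450 genes were found on both sides. Of 43 compared genes of families 1 to 3, 2 rose and 6 fell (3 and 4 after centring), with a median of -0.45 (-0.11 against genes of like level). Beside Cyp2e1 and Cyp1a2, Cyp3a25 fell from 309 to 123 RPKM (-1.32), its neighbour Cyp3a59 from 15.2 to 5.36 RPKM (-1.35), Cyp2u1 from 7.93 to 2.75 RPKM (-1.25) and Cyp2d40 from 92.7 to 43.3 RPKM (-1.08). Cyp3a11, the most abundant gene of its family, stood at 1050 and 1067 RPKM (0.02), and the 7 Cyp3a genes summed to 1434 and 1232 RPKM (-0.22). Lower Cyp3a25 was thus not a loss of the family. The 2 risers were Cyp2a4 and its neighbour Cyp2b9, the latter from 1.34 to 4.99 RPKM (1.36), both known as female-biased in mouse liver. Cyp2a5, a near-identical copy of Cyp2a4, stood at 829 and 1016 RPKM (0.29), and the pair summed to 831 and 1097 RPKM (0.40). The value of Cyp2a4 therefore depends on how reads were divided between the copies, which is not given in the sources used here.

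The list of growth hormone, STAT5 and sex-biased genes held 3 rises and 2 falls among 25 compared, with a median of -0.07. Socs2, a STAT5 target, rose from 2.48 to 10.4 RPKM (1.72), and its change on chow was 1.64. Hsd3b5, a male-biased steroid dehydrogenase, fell from 120.1 to 56.7 RPKM (-1.07). Male-biased Cyp2d9 stood at 1147 and 689.7 RPKM (-0.73) and Elovl3 at 29.1 and 18.7 RPKM (-0.61). Igf1, another growth hormone target, stood at 99.8 and 103 RPKM (0.05). The Y-linked genes Ddx3y (8.91 and 6.19 RPKM) and Eif2s3y (19.3 and 16.8 RPKM) were present in both groups, and Xist was at 0.00989 and 0.0402 RPKM, the pattern of male tissue. Among conjugating enzymes 1 of 13 glucuronosyltransferase entries fell, Ugt2b1 from 264 to 113 RPKM (-1.21), and 1 of 9 sulfotransferase genes, Sult5a1 from 6.77 to 2.83 RPKM (-1.02). In retinoid metabolism 1 of 26 genes fell, Retsat, 1 rose, and the median was -0.13.

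Sugar metabolism was near the median of all genes. Igfbp1 was the 1 riser among 32 genes of gluconeogenesis, glycogen and insulin signalling, whose median was -0.25. G6pc, glucose-6-phosphatase, stood at 78.8 and 138 RPKM (0.80) and Pck1 at 482 and 582 RPKM (0.27). Slc2a8, a sugar transporter, fell from 7.10 to 2.99 RPKM (-1.02), the 1 faller among 28 genes of fructose metabolism and glycolysis, whose median was -0.13. Khk, ketohexokinase, which starts fructose breakdown, stood at 340.0 and 301 RPKM (-0.17).

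Most genes of amino acid breakdown and of the urea cycle lay below the median of all genes. Of 44 genes of amino acid breakdown 8 fell and 1 rose, 39 lay below the median of all genes, and the median was -0.59 (-0.25 against genes of like level). After centring on the median of all genes 4 were lower (Hal, Afmid, Agxt and Sds). The 8 fallers included 3 genes of histidine breakdown: Hal went from 90.4 to 29.3 RPKM (-1.59), Amdhd1, its neighbour on chromosome 10, from 58.5 to 27.9 RPKM (-1.04) and Ftcd from 97.1 to 44.4 RPKM (-1.11). Hal and Amdhd1 lie next to each other, while Ftcd acts at the end of the same route. Afmid, of tryptophan breakdown, fell from 55.9 to 18.1 RPKM (-1.57), Agxt, of glyoxylate removal, from 81.9 to 33.5 RPKM (-1.27), Sds, serine dehydratase, from 77.6 to 34.2 RPKM (-1.16), Dbt, of branched-chain breakdown, from 24.2 to 10.9 RPKM (-1.08) and Hpd, of tyrosine breakdown, from 1265 to 605 RPKM (-1.06). Csad, which makes hypotaurine, rose from 26.2 to 61.7 RPKM (1.21). In the urea cycle list Cps1 stood at 379.7 and 184 RPKM (-1.04) and Asl at 167 and 80.6 RPKM (-1.04), the 2 fallers of 14. On chow those 2 stood at -0.14 and -0.12, and Hal at -0.45.

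Genes of the 2 ends of the liver lobule differed in their medians. Of 23 periportal genes 5 fell (Hal, Sds, Cps1, Asl and Ftcd), none rose, and the median was -0.46, or -0.24 against genes of like level. Of 24 perivenous genes 2 fell (Cyp2e1 and Cyp1a2), 18 lay above the median of all genes, and the median was 0.25, or 0.31 against genes of like level. Glul, glutamine synthetase of the perivenous rim, stood at 368 and 677 RPKM (0.88), and Oat at 217 and 334 RPKM (0.62). The periportal fallers were all enzymes of amino acid or ammonia breakdown, and the same genes are counted in both lists. None of 31 hepatocyte lineage transcription factors passed, and Hnf4a stood at 97.5 and 72.2 RPKM (-0.43). None of 24 circadian clock genes passed, and Dbp stood at 63.8 and 52.4 RPKM (-0.28).

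Genes of plasma proteins made by hepatocytes fell in several systems. Of 34 complement genes 8 fell and none rose, with a median of -0.56 (-0.24 against genes of like level), and 5 were lower after centring. Both counts include Cfd (-3.17), the adipose gene given above. Hc, complement C5, stood at 168 and 37.1 RPKM (-2.15), C8a at 193 and 74.4 RPKM (-1.36), C4b at 279 and 117 RPKM (-1.25) and Mbl1, a mannose-binding lectin, at 106 and 48.1 RPKM (-1.13). Clu, clusterin, went from 1161 to 535 RPKM (-1.12), C9 from 283 to 138 RPKM (-1.02), and C4a, a near-copy of C4b, from 4.87 to 1.63 RPKM (-1.16). C3, the hub of the cascade, stood at 888 and 504 RPKM (-0.82). Late and early components were thus both among the fallers. Of 30 coagulation genes 6 fell and none rose, with a median of -0.65 (-0.28 against genes of like level), and 4 were lower after centring. Proc, protein C, stood at 261 and 77.8 RPKM (-1.73), F7 at 35.9 and 12.2 RPKM (-1.49), F2, prothrombin, at 612 and 268 RPKM (-1.19) and Hgfac at 84.7 and 37.9 RPKM (-1.14). Fgg, a fibrinogen chain, went from 1515 to 724 RPKM (-1.06) and Plg, plasminogen, from 671 to 334 RPKM (-1.004). Both procoagulant F7 and anticoagulant Proc were lower. Of the 6 coagulation fallers, only F7 (-1.24) and Proc (-1.37) also passed against genes of like level.

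Acute phase genes split by gene. Of 33 compared, 7 fell and 2 rose, and the median was -0.43. Itih4 stood at 637 and 182 RPKM (-1.80), Lrg1 at 579 and 201 RPKM (-1.52), Hp, haptoglobin, at 2440 and 1022 RPKM (-1.26) and Itih1 at 149 and 68.3 RPKM (-1.11). Saa3, a serum amyloid made by macrophages and inflamed tissue, rose from 13.2 to 66.7 RPKM (2.26). Orm2 rose from 141 to 332 RPKM (1.23) while Orm3 fell from 8.25 to 3.57 RPKM (-1.02), and the 3 Orm genes, which are close copies, summed to 1562 and 1248 RPKM (-0.32). Saa1 and Saa2 summed to 3455 and 3111 RPKM (-0.15), against 3900 and 622 RPKM on chow (-2.65). Lcn2, an acute phase protein of hepatocytes and neutrophils, stood at 98.1 and 184 RPKM (0.90), against 94.2 and 26.6 RPKM on chow (-1.79).

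Among plasma carriers 3 of 17 fell and 1, Serpina7, rose. Azgp1, zinc-alpha-2-glycoprotein, stood at 987 and 293 RPKM (-1.75) and Afm, the vitamin E carrier afamin, at 98.9 and 45.9 RPKM (-1.09). Trf, transferrin, stood at 4431 and 3119 RPKM (-0.51) and Ttr at 4302 and 2904 RPKM (-0.57). Among serpins, Serping1, the C1 inhibitor, fell from 298 to 111 RPKM (-1.42). Serpina1e fell from 10004 to 2537 RPKM (-1.98), but Serpina1a to Serpina1d were listed at 0 in flox, and the 5 copies summed to 10004 RPKM in flox livers and 12216 RPKM in knockout (0.29). The fall of Serpina1e was therefore not seen in the sum of the copies. Mup3, a major urinary protein, fell from 10171 to 3042 RPKM (-1.74) and Mup21 from 393 to 117 RPKM (-1.75), while Mup20 stood at 8002 and 7400 RPKM (-0.11). The 12 Mup symbols summed to 18794 and 10687 RPKM (-0.81), with 6 of them listed at 0 in each group. Of 32 hepatokines and hormones 5 rose (Tff3, Igfbp1, Cxcl14, Fgf21 and Lepr) and none fell, with a median of -0.08. Of the 32, 28 had at least 1 RPKM in both groups, and Cxcl14 and Lepr entered through the knockout value alone. Cxcl14, a chemokine, stood at 0.958 and 7.34 RPKM (2.09), and Lepr, the leptin receptor, at 0.472 and 2.05 RPKM (1.05). In iron handling Tmprss6, the protease that restrains hepcidin, fell from 106 to 34.3 RPKM (-1.59), and Hamp, hepcidin, stood at 2282 and 2421 RPKM (0.09).

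Markers of the cell types in liver shifted in different directions. Of 16 compared hepatocyte markers 5 fell, none rose, and the median was -0.62, or -0.23 against genes of like level, and the compared markers summed to 43529 RPKM in flox livers and 24680 RPKM in knockout. Alb was listed at 0 in every group and cannot serve as a check of the tissue. The other hepatocyte markers were abundant, with Ahsg, fetuin A, at 4098 and 4164 RPKM (0.02), beside Apoa1, Trf and Ttr given above. Cholangiocyte and ductular markers had 4 rises and no fall among 15 compared, with a median of 0.70. The 26 markers with a row summed to 229.6 and 361 RPKM. Krt8 held 41.0% of that flox sum and stood at 94.1 and 112 RPKM (0.25). Spp1, osteopontin, which is also counted among the macrophage markers, stood at 20.6 and 103 RPKM (2.27). Cd24a stood at 1.58 and 6.00 RPKM (1.44), Tspan8 at 0.325 and 2.82 RPKM (1.53) and Epcam at 0.302 and 2.01 RPKM (1.21). Krt19, a defining keratin of bile ducts, stood at 0.632 and 1.61 RPKM (0.68), and Sox9 at 1.12 and 1.67 RPKM (0.33). Only 8 of the 15 had 1 RPKM in both groups and 11 more markers were under the filter, so part of this list could enter only by being higher in knockout.

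Macrophage markers were also above the median of all genes, 30 of 31 compared, with 5 rises, no fall and a median of 0.45. The 37 markers with a row summed to 735 and 1008 RPKM. Of the 31, 28 had at least 1 RPKM in both groups, and Trem2 and Mmp12 entered through the knockout value alone. Trem2, a lipid receptor of macrophages, stood at 0.349 and 2.30 RPKM (1.29), Mmp12, macrophage elastase, at 0.197 and 3.08 RPKM (1.77), Cd63 at 4.40 and 15.3 RPKM (1.59) and Cd9 at 8.96 and 24.6 RPKM (1.36). Markers of resident Kupffer cells differed less, with Clec4f at 34.8 and 50.7 RPKM (0.53) and Cd5l at 59.8 and 68.0 RPKM (0.18). The genes that passed are ones known from lipid-associated and activated macrophages, and Spp1, Cd9 and Cd63 are expressed by other cells too. Chemokines and inflammatory mediators had 4 rises among 24 (20 with 1 RPKM in both groups). Ccl2 stood at 0.784 and 3.07 RPKM (1.19), Ccl4 at 0.196 and 1.47 RPKM (1.05) and Vcam1 at 3.45 and 7.97 RPKM (1.01). Ccl2, Ccl4 and the remaining riser, Cxcl14, entered through the knockout value alone, and 19 more members were under the filter. Of 44 interferon-stimulated genes 2 rose, Ifi27l2b from 4.62 to 14.8 RPKM (1.49) and Usp18 from 3.40 to 8.17 RPKM (1.06), and the median was 0.04. Endothelial markers stood near the median of all genes, with none of 22 called and a median of -0.08. The 24 with a row summed to 229.6 and 222 RPKM. None of 18 stellate cell and fibroblast markers passed, with a median of 0.42 (14 of the 18 had 1 RPKM in both groups). The 20 markers with a row summed to 181 and 255 RPKM, to which Dcn, decorin, gave 80.0 and 129.7 RPKM (0.69). The part of changed cell numbers in the gene groups above was not tested.

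The matrix list had both directions. Col1a1 rose from 1.51 to 4.78 RPKM (1.21) and Col3a1 from 4.23 to 11.3 RPKM (1.23), the fibrillar collagens of fibroblasts. Fn1, fibronectin, fell from 165 to 61.7 RPKM (-1.41) and Col18a1 from 125 to 46.8 RPKM (-1.40), and both are known to be made by hepatocytes. Over 29 compared genes 3 rose, 2 fell and the median was 0.45. In contrast, the sum over the 47 genes with a row went from 426 to 313 RPKM, and Fn1 held 38.9% of that flox sum. Only 22 of the 29 had 1 RPKM in both groups and 18 more genes were under the filter, so the median rests in part on genes that entered through 1 group.

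Of 17 compared erythroid and heme genes 2 fell, 1 of them after centring, and the median was -0.41 (-0.15 against genes of like level). The joined entry of the beta-globin genes Hbb-b1 and Hbb-b2 stood at 157 and 63.0 RPKM (-1.31) and on chow at 105 and 163 RPKM (0.63). Car1, carbonic anhydrase 1 of red cells, fell from 6.17 to 2.43 RPKM (-1.06). Globin RNA marks blood held in the tissue, and the list summed to 2300 and 1390 RPKM on the high-fat diet. Lymphocyte and neutrophil markers were mostly under the filter, at 19 of 25 and 12 of 15.

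Ribosome and proteasome lists were narrow. None of 79 cytosolic ribosomal protein genes passed, with a range of -0.57 to 0.35 and a median of -0.08, which was 0.29 above genes of like level. None of 76 mitochondrial ribosomal protein genes and none of 43 proteasome genes passed, with medians of -0.26 and -0.35. Of 76 nuclear-encoded genes of oxidative phosphorylation 1 fell, Ndufa9 of complex I, from 67.7 to 24.9 RPKM (-1.41), and on chow it stood at 71.2 and 29.2 RPKM (-1.26). The other 75 members lay above -1, and the median was -0.41, or -0.06 against genes of like level. Of 49 lysosome and autophagy genes 1 fell, Lamp1, from 252 to 93.2 RPKM (-1.42), beside Lamp2 at 270.1 and 210.0 RPKM (-0.36). Ndufa9 and Lamp1 were each alone in lists that otherwise did not pass. Of 50 cytoskeleton and junction genes 5 rose and 1 fell. Gjb1, connexin 32 of hepatocyte gap junctions, fell from 371 to 103 RPKM (-1.84), while Cav1, caveolin 1, rose from 1.73 to 11.8 RPKM (2.23), Tuba8 from 0.352 to 4.73 RPKM (2.08), S100a11 from 22.0 to 77.4 RPKM (1.77) and Anxa5 from 43.0 to 88.2 RPKM (1.02).

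**Figure D3:**
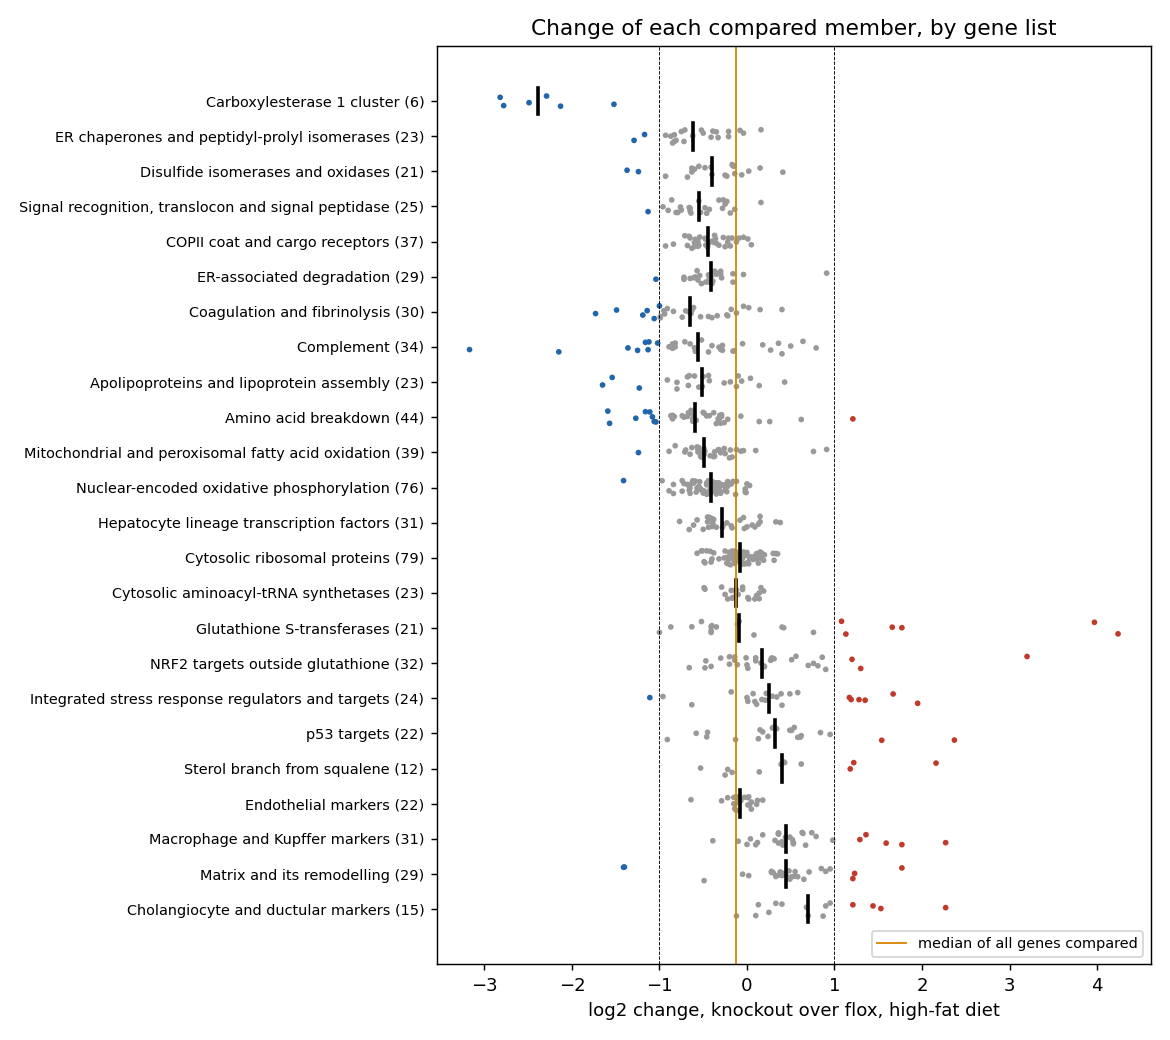
The horizontal axis is the log2 change of knockout over flox on the high-fat diet, each row is a gene list with its number of compared members, and each point is a member (vertical scatter within a row has no meaning). Black bars are list medians, the orange line is the median of all genes at -0.13, and dashed lines mark 1 and -1. The carboxylesterase 1 cluster lies wholly to the left with a median of -2.39, the ER lists lie mostly between -1 and the orange line, and cholangiocyte, matrix and macrophage lists lie to the right.

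Most genes that fell on the high-fat diet were also lower on chow, and most that rose were also higher on chow. On chow 26 of 9929 genes rose (0.262%) and 141 fell (1.42%), and the median change over all of them was -0.02. Of these, 83 genes fell on both diets, 43.2% of the high-fat fallers and 58.9% of the chow fallers, and 18 rose on both, 16.2% and 69.2%. Of the 187 high-fat fallers compared on chow 179 had a chow change below 0, with a median of -0.89 against -1.25 on the high-fat diet. Of the 89 high-fat risers compared on chow 77 had a chow change above 0, with a median of 0.54 against 1.28. The genes were chosen for their high-fat change, so these medians do not show which diet had the larger effect. Across 9824 genes compared on both diets the changes had a Pearson r of 0.63 and a Spearman rho of 0.55, given as a description because genes are not independent replicates and the groups were processed in 1 series.

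Genes past the threshold in the same direction on both diets included the carboxylesterase 1 cluster, Bloc1s1, Retsat and Dgat2 among the fallers. Among the risers they included Tff3, Serpina7, Asns, Cav1, Cxcl14 and Socs2. The carboxylesterase 1 cluster had a median of -3.20 on chow against -2.39 on the high-fat diet. Retsat stood at 129 and 15.6 RPKM on chow (-2.97), Tff3 at 3.27 and 68.9 RPKM (4.03), and Serpina7 at 10.2 and 91.2 RPKM (3.04). The genes with the largest gap between diets were others. The change on the high-fat diet exceeded that on chow by 4.04 for Gstm3, 3.45 for Gsta1, 3.27 for Saa2, 3.14 for Cyp2a4, 2.76 for Sqle and 2.69 for Lcn2. The gap was negative for Moxd1 (-2.61), the joined globin entry Hbb-b1,Hbb-b2 (-1.93), Arrdc3 (-1.86), Cyp3a59 (-1.66) and Mup21 (-1.55). The positive gaps named here were those of glutathione S-transferase and acute phase genes, the P450 gene Cyp2a4 and the sterol gene Sqle. These gaps between diets were not tested. Summed with its near-identical copy Cyp2a5, Cyp2a4 changed by 0.40 on the high-fat diet and by -0.03 on chow.

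**Figure D4:**
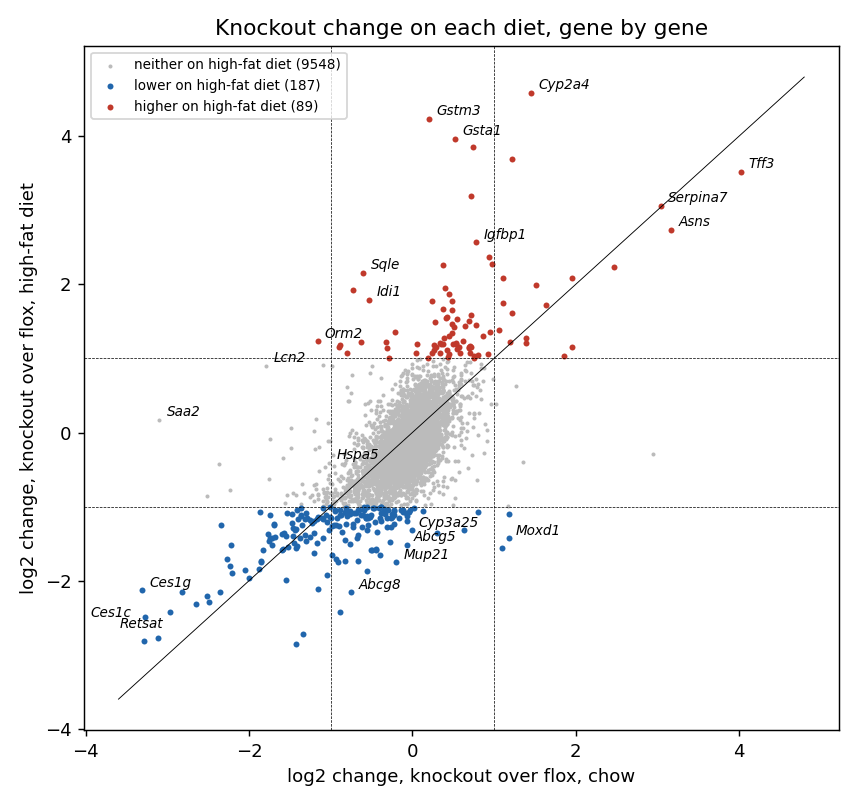
Each point is 1 of the 9824 genes compared on both diets, with the log2 change of knockout over flox on chow on the horizontal axis and on the high-fat diet on the vertical axis. The diagonal marks equal change, dashed lines mark 1 and -1, and colours give the call on the high-fat diet (89 higher, 187 lower). Tff3, Serpina7 and Asns lie near the diagonal, Gstm3 and Gsta1 lie far above it, and Abcg5 and Mup21 below it.

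The threshold divides a continuous range. Just inside it on the higher side were Mtmr11 at 0.289 and 1.58 RPKM (1.003) and Cd276 at 1.08 and 3.17 RPKM (1.005), and just outside Npdc1 at 2.66 and 6.30 RPKM (0.996) and Acot2 at 3.57 and 8.06 RPKM (0.988). On the lower side Slc25a17 at 24.9 and 11.9 RPKM (-1.003) and Plg at 671 and 334 RPKM (-1.004) were just inside, and Fam73b at 16.7 and 7.86 RPKM (-0.996) and Gstt3 at 29.1 and 14.1 RPKM (-0.995) just outside.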

How the data were processed

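RNA of whole liver was sequenced in 8 libraries, 2 per group of 4 mice. The values deposited by the authors are RPKM, 1 per gene and group, per the file headers. The submitters' processing notes list TopHat2 2.0.7, Cuffdiff 2.1.1 and mm10, with neither role nor order. Annotation, scaling, strandedness and how the 2 libraries became 1 value: not given in the sources used here. Ratios between low values gave no common step (the most common covered 0.719% of 2087 low genes), so reads were not recovered and depth is unknown.

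Rows with the same symbol (158 symbols) were summed. Genes with at least 1 RPKM in either high-fat group and listed at 0 in neither were compared on log2(RPKM + 1), which understates changes of low genes, and called at a 2-fold change. Values of exactly 0 may be failed estimates, and 17 genes, 11 of them small RNA, were left out for it. Genes were read in 5 bands of mean level. Genes named are the 20 largest rises and falls with at least 5 RPKM in either group, up to 8 called members and the most abundant member of each of 81 gene lists, families with a high share called, genes nearest the threshold, and fixed stress genes. Further members, named to place these, and all sums over gene copies were chosen after their values were seen. The comparison, members and lists were chosen with earlier results of these data known. Coordinates and promoters came from RefSeq on GRCm38.p6, the assembly of mm10, matched by symbol (10160 genes with coordinates, 7379 with a promoter). Python 3.11.15, numpy 2.4.6, pandas 2.3.3 and matplotlib 3.10.9 were used. The steps were tested on simulated data. The closing section gives the effect of 11 alternatives, of which 1 was added later. A few genes are not reported here.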

Additional observations from a re-analysis of the deposited data

Results flagged for a closer look

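Only 4 genes passed the threshold in opposite directions on the 2 diets, and the difference between diets was not tested for any of them. Orm2, an acute phase glycoprotein, changed by 1.23 on the high-fat diet (141 RPKM in flox livers and 332 RPKM in knockout) and by -1.16 on chow (143 and 63.4 RPKM). Moxd1, a monooxygenase-like protein, changed by -1.43 on the high-fat diet (12.3 and 3.95 RPKM) and by 1.18 on chow (8.41 and 20.3 RPKM). Fmr1nb changed by -1.56 on the high-fat diet (2.59 and 0.222 RPKM) and by 1.10 on chow (0.423 and 2.06 RPKM). Rprl3, a small RNA, changed by -1.10 on the high-fat diet (6.31 and 2.41 RPKM) and by 1.18 on chow (2.77 and 7.53 RPKM). For Orm2 the flox values of the 2 diets were nearly equal, and the knockout values lay on either side of them. The sum of the close copies Orm1 to Orm3 changed by -0.32 on the high-fat diet and by -1.71 on chow. Opposite directions were therefore not seen in the sum of the copies.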

How the results depend on the processing

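None of the named genes past the threshold changed sign under any alternative that could give it a value, while some named genes and list medians near 0 did under the 3 scalings (centring, rescaling and genes of like level). The counts of genes past the threshold moved more. With a pseudocount of 0.1 RPKM 228 genes were higher and 257 lower, and with 5 RPKM 37 were higher and 119 lower, so the share of calls that were higher went from 36.6% to 47.0% and 23.7%. With a filter of 5 RPKM 63 genes were higher. At 1.5-fold 328 were higher and 859 lower. After scaling both groups to the same RPKM sum without the 50 most abundant genes 196 were higher and 91 lower (68.3% higher), with the median of all genes at 0.12. Against the median of genes of like level, an alternative chosen after seeing the data, 101 were lower and 145 higher (58.9% higher). Centring on the median gave 53.3% higher. Of the 192 fallers, 129 passed after centring, 91 after rescaling and 100 against genes of like level, while 111, 111 and 110 of the 111 risers did, so smaller falls of abundant genes depend on the scaling. No filter, the highest of repeated rows, zeros kept at 0 and small RNA left out changed no call of a named gene. No paired analysis was possible because the files hold 1 value per gene and group, and leaving out each library was not run for the same reason. With depth unknown, no counting error can be given for low genes such as S100g or Gpx2.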

Other observations

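Called genes that followed each other among the compared genes with coordinates, in the same direction, formed 21 runs. These held 46 of the 297 called genes with coordinates, while 2.96% of all compared genes were called. Genes not compared can lie between such neighbours, and Sprr1a and S100a11 span chr3:92483954-93526288. How many runs would arise without clustering was not tested. Apart from the Ces1 run these were pairs. Pairs that rose included Mt2 and Mt1, Cbr1 and Cbr3, Gstm1 and Gstm4, Gsta1 and Gm3776, and Cyp2b9 and Cyp2a4. Pairs that fell included Hal and Amdhd1, Abcg5 and Abcg8, Cyp3a25 and Cyp3a59, Mup3 and Mup21, Hsd3b5 and Hsd3b2, and Hsd11b1 and G0s2. Hsd11b1, which regenerates active glucocorticoid, stood at 283 RPKM in flox livers and 116 RPKM in knockout (-1.28), and it is named here after its value was seen.

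A few genes picked after their values were seen were very low in flox and entered the comparison through the knockout value alone. H19, an imprinted RNA, stood at 0.0963 and 2.25 RPKM (1.57), Areg, the ligand amphiregulin, at 0.0248 and 2.11 RPKM (1.60), and Akr1c18, a progesterone-inactivating reductase, at 0.0274 and 3.07 RPKM (1.98).

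Of the 17 genes left out because 1 high-fat group lists them at 0, 11 were small RNA. Scd1 was at 0 in flox and 894 RPKM in knockout, and Serpina1a, Serpina1b, Serpina1c and Serpina1d were at 0 in flox and at 1858, 3095, 3004 and 1722 RPKM in knockout. On chow Serpina1a, Serpina1c and Serpina1e were listed at 0 in both groups.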
